A study of Caenorhabditis elegans with 2 samples.

Results

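The heat shock transcription factor gene hsf-1 and 9 genes of cytosolic chaperones were compared between 2 Affymetrix arrays of whole Caenorhabditis elegans. The genes were taken by name: hsf-1, hsp-1, hsp-70, hsp-110, hsp-16.2, hsp-16.41, hsp-12.3, hsp-12.6, hsp-43 and sti-1. A probe set, the group of short probes that reads one transcript, counted where the platform annotation gives it to exactly 1 gene. The 10 genes had 12 such probe sets of the 22548 that are not controls, and 17118 genes in all had a probe set of their own. For hsf-1 and hsp-110 there were 2 each, and for the other 8 genes 1 each.

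Chaperones bind unfolded proteins and keep them from aggregating or help them fold. HSF-1 is held inactive under normal conditions, and on heat or other protein damage it binds DNA as a trimer and switches on genes of inducible chaperones; in nematodes it is also needed for development and long life. HSP70 proteins work with J-domain partners that deliver substrates and with exchange factors that release the nucleotide, and an adaptor passes clients on to HSP90. Small heat shock proteins share an alpha-crystallin domain and hold unfolded proteins without using ATP.

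One array carries the label imp-2 RNAi: these animals were fed Escherichia coli HT115 that makes double-stranded RNA for imp-2, a gene of the signal peptide peptidase family of intramembrane proteases. The other carries the label GFP RNAi: these animals ate the same strain making double-stranded RNA for green fluorescent protein, which the worm genome does not encode, as the control. Both groups therefore took up double-stranded RNA from HT115, and each holds 1 array of total RNA. The sources used here do not state worm strain, age, stage, temperature or time of feeding. With no replicate on either side, no difference could be tested.

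The targeted gene gave no clear check of the labels. One imp-2 probe set read 1754 under the imp-2 RNAi label and 2318 under the GFP RNAi label, and the other read 2517 and 510. All directions here are therefore directions between labels, and levels in whole animals cannot tell fewer cells of a type from less RNA per cell. Among 8553 genes bright enough to count as expressed, 9.72% passed 2-fold upward under the imp-2 RNAi label and 2.27% passed it downward. So 81.1% of the calls were higher, and without the filter on dim genes that share was 56.9%. Ratios are log2 of imp-2 RNAi relative to GFP RNAi, centred on the median of expressed genes. Without the filter they are centred on all genes instead, which lowers every log2 ratio by 0.22 and so also changes that share. The only error these arrays hold is the spread between probe sets of one gene, 0.37 on the log2 scale over 2489 pairs. It is the standard deviation of a single probe set within its gene, so the difference between 2 sets is typically larger. It says nothing of the spread between cultures.

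The regulator gene and the expressed chaperone genes past 2-fold lay on opposite sides of 0. Of all 8 expressed chaperone genes, 5 had a log2 ratio above 0 and 3 below it: hsp-1, hsp-110 (on its brighter probe set) and sti-1. Under the imp-2 RNAi label hsf-1 was 2.76-fold lower on its brighter probe set and 1.84-fold lower on the other. Under that label hsp-70 was 3.37-fold, hsp-16.2 2.54-fold and hsp-12.3 2.34-fold higher. The constitutive gene hsp-1 differed by 1.09-fold. Of the 10 genes, 9 passed the filter on dim genes. Of these 9, 3 passed 2-fold upward, 1 passed it downward and 5 did not reach it. Over all expressed genes 9.72% passed it upward and 2.27% downward. The median of the 9 log2 ratios was 0.94, against 0.00 over all expressed genes. These genes were proposed with results of these arrays known, so the counts describe them and support nothing.

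**Figure D1:**
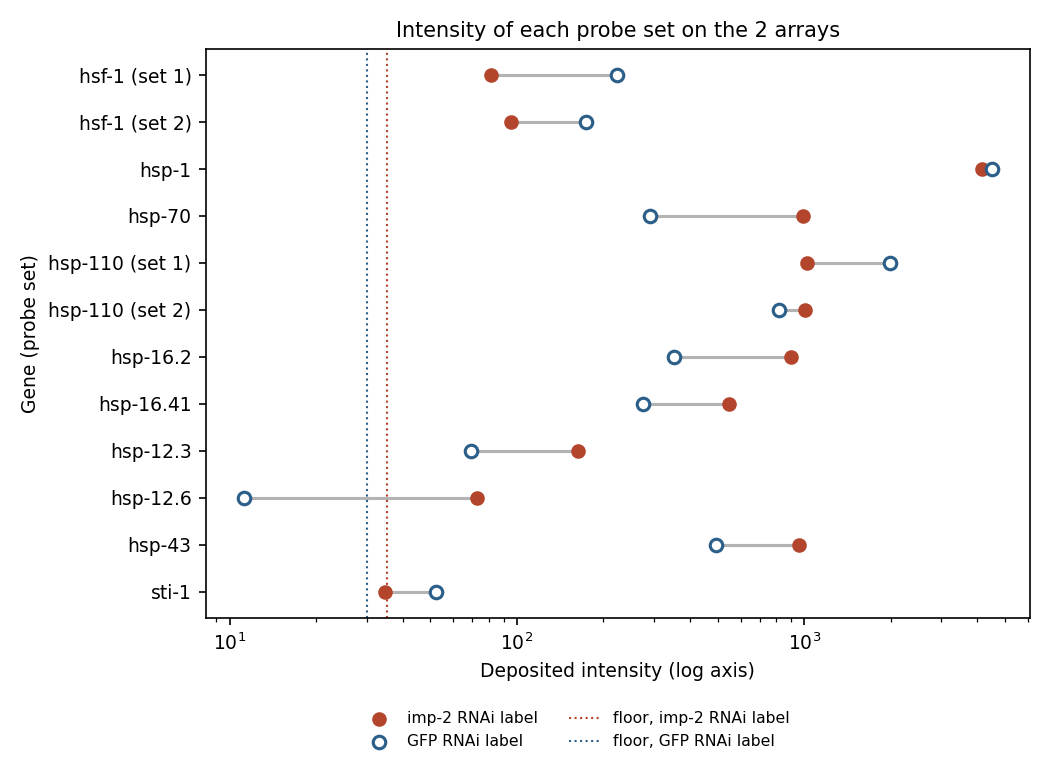
Deposited intensity (log axis) of each probe set under the imp-2 RNAi label (filled) and the GFP RNAi label (open), with dotted lines at the floor of each array (35.3 and 30.1). Both hsf-1 probe sets read lower under the imp-2 RNAi label, the 2 hsp-110 sets point in opposite directions, and hsp-12.6 lies under the floor only with the GFP RNAi label.

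HSF-1 was read by 2 probe sets, and both were lower under the imp-2 RNAi label. The brighter one (171962_x_at) read 81.1 under the imp-2 RNAi label and 222 under the GFP RNAi label, a log2 ratio of −1.47. The other one (191962_s_at) read 95.0 and 173, a log2 ratio of −0.88, which is 1.84-fold and short of the 2-fold threshold. Both lay above the floors, the median intensities of the arrays, under which a value was not used as read. The difference between the 2 log2 ratios was 0.59, and 24.7% of the pairs of probe sets of one gene differed by at least as much. The suffix of both IDs flags probes that can match more than 1 transcript. Only 0.55% of expressed genes had a log2 ratio as low as the brighter set, and 1.29% of the 856 genes of like brightness did (expressed genes were cut by brightness into 10 equal bins). The mean of both sets gave −1.16, still past 2-fold.

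Of the HSP70 genes, the inducible one was higher under the imp-2 RNAi label and the constitutive one was level. The inducible cytosolic gene hsp-70 (192266_s_at) read 991 under the imp-2 RNAi label and 292 under the GFP RNAi label, a log2 ratio of 1.75. This was the highest ratio of the 9 genes that passed the filter, and 1.41% of expressed genes reached it. In its own bin of brightness 0.23% of 855 genes did, and 2.22% were at least 2-fold higher. Its ID carries the suffix for several transcripts, and close inducible copies exist in the genome, and their messages cannot be told apart from it with certainty. The constitutive gene hsp-1 (193430_at), the worm HSC70, read 4153 and 4511, a log2 ratio of −0.13, which is smaller than the spread between probe sets. The log2 ratios of hsp-70 and hsp-1 differed by 1.88, or 5.06 times this spread of a single probe set.

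Of the partners of HSP70, hsp-110 was read in both directions and sti-1 only as a bound. The exchange factor gene hsp-110 had 2 probe sets of opposite sign. The brighter one (173610_at) read 1025 under the imp-2 RNAi label and 1986 under the GFP RNAi label. Its log2 ratio of −0.97 was just short of 2-fold. Without the filter on dim genes the ratio was −1.18, past 2-fold, only because that setting lowers every log2 ratio by 0.22. The other one (176607_s_at) read 1004 and 815, a log2 ratio of 0.29. No single direction can be given for hsp-110. The adaptor gene sti-1 (185791_s_at), whose protein links HSP70 to HSP90, was dim on both arrays. It read 34.7 under the imp-2 RNAi label, just below that array's floor of 35.3, and 52.2 under the GFP RNAi label, which makes it at least 1.49-fold lower.

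All 5 small heat shock protein genes read higher under the imp-2 RNAi label. The genes hsp-16.2 and hsp-16.41 belong to the heat-inducible HSP16 class and are direct neighbours in the gene table. For hsp-16.2 (188282_at) the intensities were 899 under the imp-2 RNAi label and 351 under the GFP RNAi label, a log2 ratio of 1.34. For hsp-16.41 (188444_at) they were 545 and 274, a log2 ratio of 0.98, or 1.98-fold, just under the threshold. The 2 log2 ratios differed by 0.36, less than the spread between probe sets of one gene. In their bins of brightness 1.40% of genes reached the ratio of hsp-16.2 and 3.74% that of hsp-16.41. Both IDs lack the suffix for several transcripts.

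The second pair of neighbours, hsp-12.3 and hsp-12.6, encodes short members of the family. The gene hsp-12.6 is known as a target of the insulin-regulated factor DAF-16. For hsp-12.3 (192338_at) the intensities were 163 under the imp-2 RNAi label and 69.4 under the GFP RNAi label, a log2 ratio of 1.22. Genes of that brightness vary more: 10.9% of its bin had a ratio as high. For hsp-12.6 (192323_at) they were 72.7 and 11.2, and the second value lies under the floor of 30.1. It was therefore at least 2.39-fold higher. Its mean brightness did not pass the filter, so it is in none of the counts past 2-fold that use the filter. The small heat shock protein gene hsp-43 (190097_s_at) read 958 and 495, a log2 ratio of 0.94, or 1.92-fold.

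**Figure D2:**
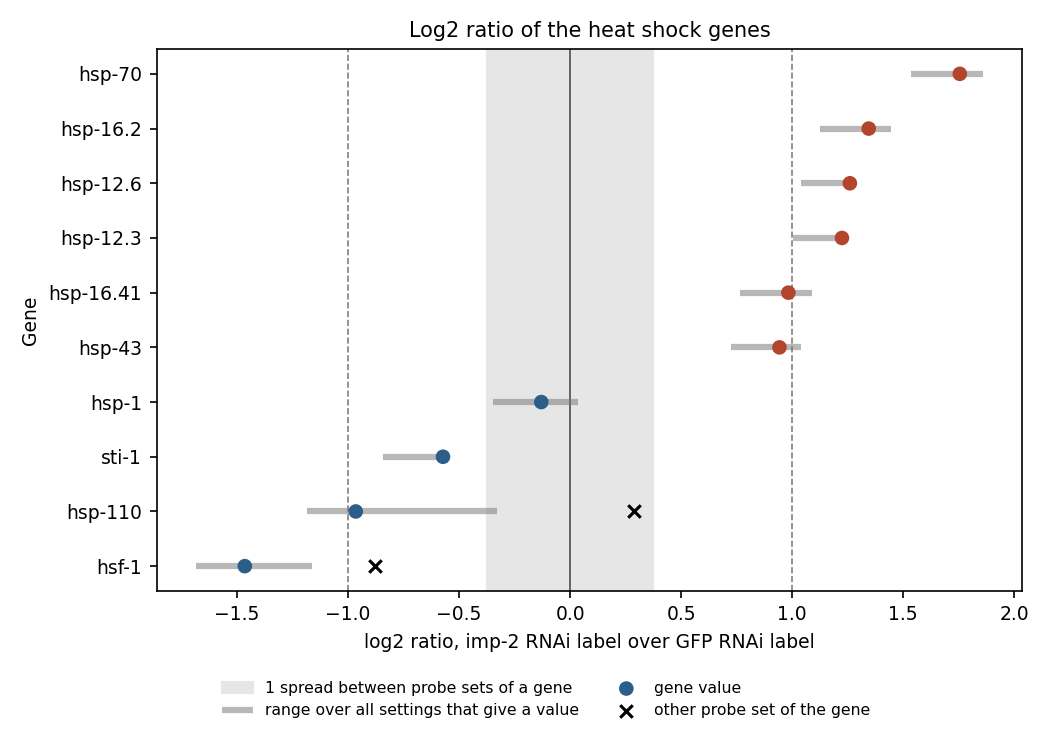
Log2 ratio of each gene (points; red above 0, blue below) with the range over all settings that give a value (grey bars), other probe sets of the same gene (crosses), 2-fold (dashed) and 1 spread between probe sets of a gene on either side of 0 (shaded, 0.37). The genes run from hsf-1 at −1.47 to hsp-70 at 1.75, with hsp-1 alone inside the shaded band; the values of hsp-12.6 and sti-1 are bounds on the size of the difference.

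By size of the log2 ratio the order from the top was hsp-70, hsp-16.2, hsp-12.3, hsp-16.41, hsp-43, hsp-1 and hsf-1. The genes hsp-12.6 and sti-1 were left out as bounds, and hsp-110 because its probe sets disagree in sign. Neighbours in this order from hsp-16.2 to hsp-43 were less than 1 spread apart. The log2 ratio was 0.94 for hsp-43 and −0.13 for hsp-1, which are further apart than that. Ratios also differed with brightness over the whole array, from a median of 0.24 in the dimmest bin of expressed genes to −0.09 in the brightest. The floors of the 2 arrays themselves have a log2 ratio of 0.22, and their part in the median of the dimmest bin, which holds sti-1, was not tested. The 5 higher genes that passed the filter lay between 1.06 and 1.87 above the median of their own bin. For hsf-1 the difference from the median of its bin was −1.51, for hsp-110 it was −0.88 and for sti-1 it was −0.81. After normalization by quantiles, or after centring by brightness, hsp-16.41 and hsp-43 also passed 2-fold, so that 5 of 9 genes were higher in place of 3.

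**Figure D3:**
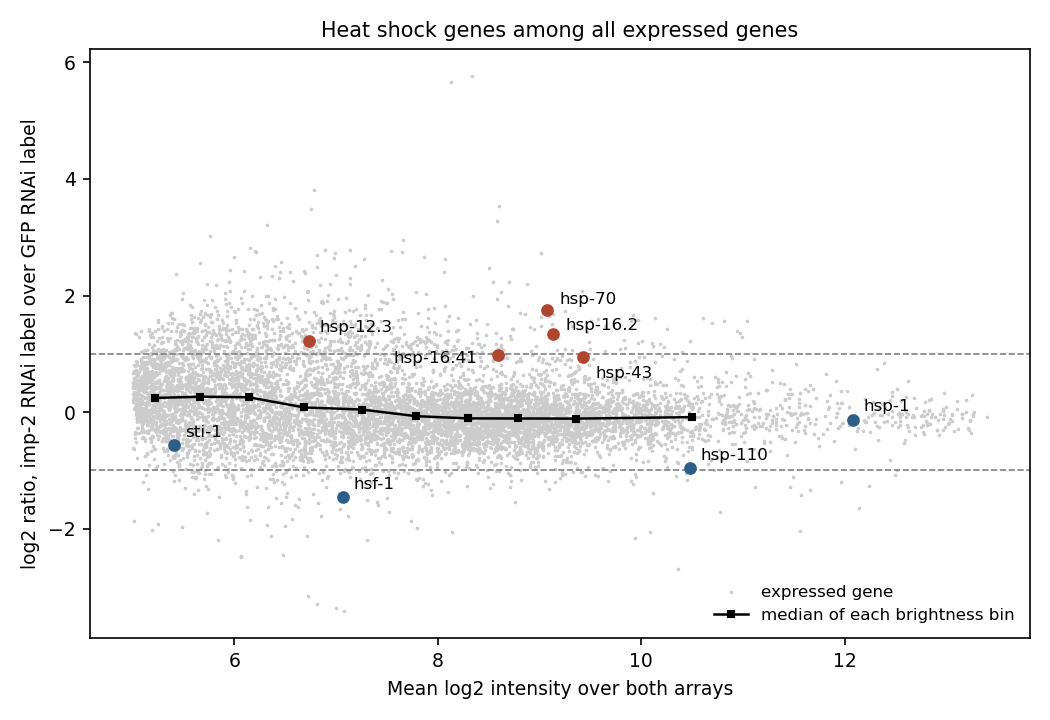
Log2 ratio (imp-2 RNAi relative to GFP RNAi) against mean log2 intensity for the expressed genes (grey), with the 9 heat shock genes that passed the filter coloured and the median of each bin of brightness as squares; dashed lines mark 2-fold. The genes hsp-70, hsp-16.2, hsp-16.41 and hsp-43 lie in bins of brightness where between 2.22% and 3.51% of genes were past 2-fold upward, and hsf-1 lies near the lower edge of its range.

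Other genes of the cytosolic chaperone system, listed by name, mostly lay within 2-fold, as did 7528 of the 8553 expressed genes. Of 16 further genes of the HSP90 and HSP70 system, 13 were expressed; 1 passed 2-fold upward, 0 passed it downward, and the median log2 ratio was 0.02. The HSP90 gene (daf-21, annotated as hsp-90) read 3657 under the imp-2 RNAi label and 4286 under the GFP RNAi label, a log2 ratio of −0.24, and its second probe set gave −0.03. The higher one was unc-23, a BAG-domain regulator of HSP70 (218 against 97.4, 2.23-fold), although its other probe set gave a log2 ratio of 0.38 and the call was lost under 3 of 9 alternatives. Of the 16, 2 close relatives of hsp-70, F44E5.4 and F44E5.5, have no probe set of their own.

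Of 11 other small heat shock protein genes, 7 could be read separately and 6 of these were expressed. The log2 ratios of the 6 ran from 0.00 to 1.05, with a median of 0.32. One was past 2-fold: hsp-16.20 (listed as F08H9.3) read 62.8 under the imp-2 RNAi label and 24.2, below the floor, under the GFP RNAi label, so it was at least 2.07-fold higher. That call was lost under 4 of 9 alternatives: quantile normalization, intensity-dependent centring and both other filters. The oocyte and embryo gene sip-1 was level, at 9388 against 9290. The genes hsp-16.1, hsp-16.11, hsp-16.48 and hsp-16.49 share probe sets with a paralog and are not given here.

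Genes that act on HSF-1 lay close to level. Of 6 listed, 4 were expressed, with a median log2 ratio of −0.02. All 4 lay within 2-fold, as did 7528 of the 8553 expressed genes. The gene hsb-1, whose protein binds HSF-1 and holds it back, read 732 under the imp-2 RNAi label and 717 under the GFP RNAi label, a log2 ratio of 0.02. Its partner gene ddl-1 had a log2 ratio of −0.35.

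Chaperones of other kinds gave mixed ratios. In the ER both BiP genes were higher under the imp-2 RNAi label: hsp-4 had a log2 ratio of 1.29 and hsp-3 of 0.74. Among mitochondrial chaperones the HSP70 gene hsp-6 was level, at 0.04 as a log2 ratio (−0.39 on its second probe set). The mitochondrial chaperonin gene hsp-60 read 246 under the imp-2 RNAi label and 528 under the GFP RNAi label, a log2 ratio of −1.11, and its second probe set gave −1.19. Of 6 listed ER and mitochondrial genes, hsp-4 alone passed 2-fold upward and hsp-60 alone downward. Over all expressed genes 9.72% passed it upward and 2.27% downward. Both calls were lost without probe sets that may match several transcripts, where 0 genes of the list passed 2-fold in either direction. In the main setting 5 of the 6 had a log2 ratio above 0, and the median was 0.27. The cytosolic chaperonin CCT folds actin and tubulin. Its 7 expressed subunits all lay within 2-fold, as did 7528 of the 8553 expressed genes. Of the 7, 6 had a log2 ratio below 0, and the median of the 7 was −0.37. Differences between these lists were not tested.

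**Figure D4:**
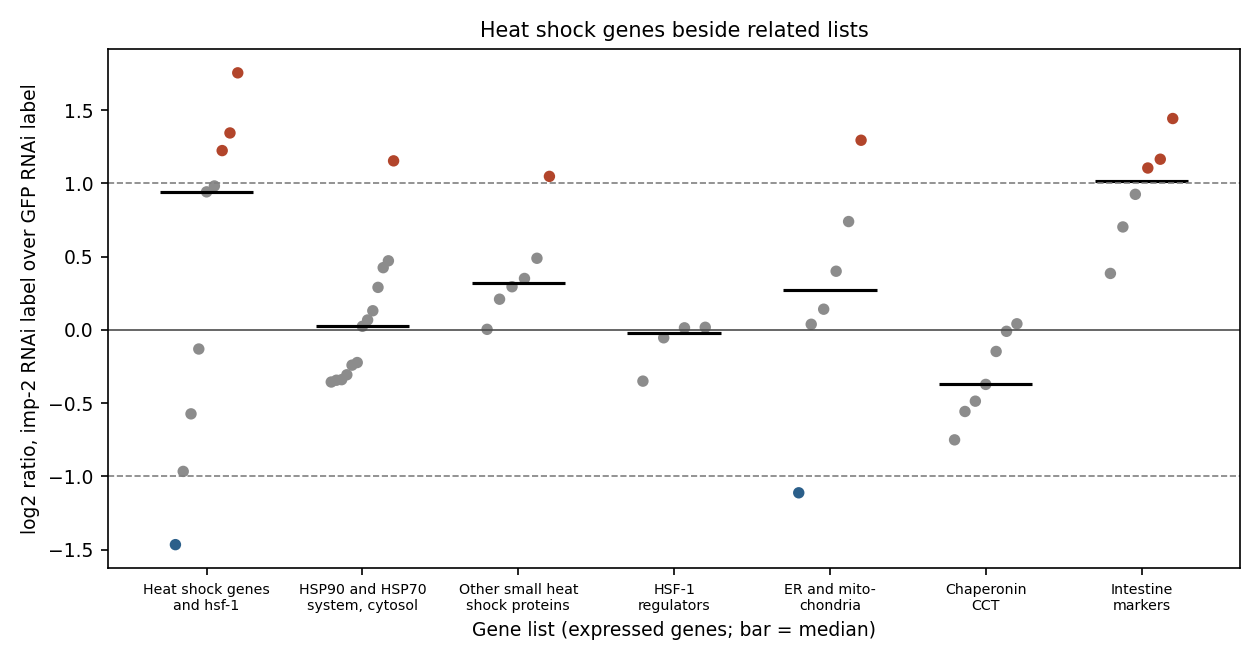
Log2 ratio (imp-2 RNAi relative to GFP RNAi) of each expressed gene, by list, with the median as a bar; red and blue points are at least 2-fold higher and lower, and dashed lines mark 2-fold. The heat shock genes spread from −1.47 to 1.75, the 13 genes of the HSP90 and HSP70 system centre on 0.02, and the intestine markers have a median of 1.01.

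Markers of tissues also differed between the labels. Of 7 intestine markers 6 were expressed, all with a log2 ratio above 0; 3 were at least 2-fold higher (ges-1 at 2.72-fold, elt-7 at no less than 2.24-fold and ifb-2 at 2.15-fold), the median was 1.01, and the intensities of all 7 summed to 1742 under the imp-2 RNAi label and 976 under the GFP RNAi label. The defining factor gene elt-2 was under the floor on both arrays. Of all expressed genes, 9.72% were at least 2-fold higher, and this share ran from 2.22% to 18.7% across the bins of brightness. The median was 0.15 for body wall muscle (summed 6132 and 5393), 0.17 for epidermis (783 and 829), 0.50 for sperm (6361 and 4572), −0.14 for germline and oocyte (12001 and 13344) and −0.32 for neurons (1393 and 1460). In these 5 lists, 1 sperm gene was past 2-fold, gsp-4 at 2.02-fold higher. The 3′ over 5′ ratio of the RNA controls was 2.31 and 3.64 for actin, 1.12 and 1.37 for Gapdh, 8.03 and 6.49 for catalase and 16.7 and 12.06 for ubiquitin, so that 2 of the 4 controls were lower and 2 higher under the imp-2 RNAi label. The part of tissue makeup and RNA quality in the ratios of the heat shock genes was not tested.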

How the data were processed

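The authors deposited linear intensities, 1 per Affymetrix probe set and array. Both arrays had a trimmed mean of 150.04 (2% off each end); the sources used here do not give the summarisation, background correction or scaling. The annotation gives 20766 probe sets to 1 gene, 887 to several and 895 to none, controls aside; only the first were used. The array's build is not given, so the WBcel235 gene table served for names and neighbours only.

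Values under an array's median (35.3 for imp-2 RNAi, 30.1 for GFP RNAi) were set to it, which turns folds against them into lower bounds. A gene took its brightest probe set and was expressed when its mean log2 intensity exceeded the median over probe sets. Log2 ratios were centred on the expressed genes, a shift of 0.01. Each group has 1 array, which limits the precision and allows no p-value. The steps, run in Python 3.11.15 with pandas 2.3.3, were checked on simulated data. The members and lists were chosen with earlier results of these data known. All members are named, and so are every gene of the chaperone lists past 2-fold and a few fixed genes. The names daf-21 and opt-2 were matched by locus tag.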

Additional observations from a re-analysis of the deposited data

How the results depend on the processing

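Under 9 alternatives the median log2 ratio of the heat shock genes stayed between 0.74 and 1.06. The count at least 2-fold higher, 3 of 9, was 5 of 9 after quantile normalization and 5 of 9 with intensity-dependent centring. It was 2 of 5 without probe sets that may match several transcripts. It was 4 of 10 without the filter on dim genes and 4 of 6 above the 75th percentile of brightness. Above that percentile the ratios are centred on the brighter genes alone, which raises every log2 ratio. This move alone put hsp-16.41 (0.98 to 1.08) and hsp-43 (0.94 to 1.04) past 2-fold. Over all expressed genes the count was 696 of 8545 after quantile normalization and 665 of 8553 with intensity-dependent centring. Without probe sets that may match several transcripts, 581 of 5676 expressed genes were at least 2-fold higher and 148 lower. The count lower, 1 of 9, was 0 of 5 without probe sets that may match several transcripts and 0 of 6 above the 75th percentile of brightness, both of which leave out hsf-1. The count lower was 2 of 10 without the filter on dim genes, where hsp-110 joined hsf-1. That setting centres on all genes, which lowers every log2 ratio by 0.22. This move alone put the bright gene hsp-110 past 2-fold. Of 75 single-gene values, 74 moved by less than the spread between probe sets; the other was hsp-110, at −0.33 as the mean of its sets. The call of unc-23 was lost with the mean of its sets and both other filters. Over all genes the counts higher and lower were 831 and 194 of 8553 in the main setting. Without the filter they were 530 and 402 of 17118, again with every log2 ratio lowered by 0.22. They were 239 and 51 of 4411 above the 75th percentile. No paired analysis was possible because each group holds 1 array. Brightness near the floor limits sti-1 and hsp-12.6.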

Other observations

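Genes next to the heat shock genes were looked at in the same way. In the order of protein-coding genes, hsp-16.2 and hsp-16.41 adjoin each other, as do hsp-12.3 and hsp-12.6. The 10 genes have 16 other direct neighbours, of which 8 were expressed. None of these 8 was past 2-fold, and 7528 of the 8553 expressed genes also lay within it. The log2 ratios of the 8 had a median of 0.02 and ranged from −0.68 to 0.91. The highest and the lowest of them lie on the 2 sides of hsp-43.

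The 2 hsp-110 probe sets differed by 1.25 on the log2 scale, and 2.61% of the 2489 pairs of probe sets of one gene differed by at least as much. Which of them reads the gene's main message was not tested. The 2 hsp-60 sets, in contrast, differed little from each other, at −1.11 and −1.19. The hsp-60 call was nevertheless lost without probe sets that may match several transcripts.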
